A study of Rattus norvegicus with 90 samples.

Results

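The earliest and mildest of the hepatocyte exposures was examined: primary rat hepatocytes that had spent 9 h in 0.025 mM thioacetamide-S-oxide, the low dose, against hepatocytes kept for 9 h in vehicle. The comparison was defined by the sample labels (cell type hepatocytes, duration 9 h, dose Low or Vehicle) and held 10 of the 90 libraries of the series, 5 low dose libraries (MS-96 to MS-100) and 5 vehicle libraries (MS-91 to MS-95). Primary hepatocytes are liver parenchymal cells taken directly from the animal. These came from Sprague-Dawley rats, were bought frozen and were cultured overnight before the exposure began. The vehicle was the hepatocyte maintenance medium alone, and no genetic change was made to any of the cells. The study treated 3 cell types, hepatocytes, renal proximal tubule epithelium and heart muscle cells (cardiomyocytes), each with vehicle or 1 of 2 doses for 9 or 24 h, and sequenced 5 libraries in each of 18 groups. In hepatocytes the high dose was 0.125 mM. The labels do not say whether the 5 cultures of a group came from separate animals, so the p-values below measure the spread between cultures. Library numbers ran consecutively from vehicle to low to high dose at 9 h, and the order of handling, if that is what the numbers record, cannot be told apart from the dose.

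Thioacetamide is a classic liver toxicant. It does little by itself and is oxidised in hepatocytes, first to the S-oxide used here and then to the reactive S,S-dioxide, which binds covalently to lipids and proteins. Repeated dosing of rats causes death of hepatocytes around the central veins and, later, fibrosis and cirrhosis, which is why the compound is widely used as a model of liver injury. Giving cells the S-oxide passes over the first oxidation and leaves the second to the cells. A low dose at an early time addresses which messenger RNAs move before overt injury.

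Polyadenylated RNA was sequenced, and the level of each of 40071 annotated transcripts was estimated from reads assigned to the Rnor_6.0 transcriptome. The transcript was the unit throughout. The tables name transcripts by Ensembl identifier, 0 of them could be paired with a gene name, and therefore neither the hepatocyte label nor any pathway could be checked against named genes. Total estimated counts were 15413513 to 34074008 in the vehicle libraries and 27074527 to 33654248 in the low dose libraries. The smallest total belonged to vehicle library MS-95, which also stood apart on the second principal component (16.2% of the variance), at -41.8 where the other 9 libraries lay between -7.0 and 12.5. On the first component (22.2%) the 5 low dose libraries lay between 10.4 and 18.7, MS-95 at 3.6, and the other 4 vehicle libraries between -26.9 and -10.3. The median SD of log2(CPM + 0.5) over transcripts was 0.134 among the vehicle libraries, 0.108 without MS-95, and 0.117 among the low dose libraries. The number of called transcripts is given below with and without MS-95.

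At 9 h the low dose moved few transcripts far. Of 16572 transcripts with enough counts to test, 387 (2.34%) were called, meaning that edgeR's quasi-likelihood test gave a Benjamini-Hochberg adjusted p of at most 0.05 and that the natural-log fold change was at least 0.41 in size, about 1.5-fold. The called transcripts were nearly evenly divided: 202 (1.22% of those tested) were lower at the low dose, and the other 47.8% of the called (1.12% of those tested) were higher. In such bulk libraries a change in the make-up of a culture and a change in RNA per cell cannot be told apart. The median log2 fold change was 0.78 among the higher and -0.78 among the lower, against 0.002 over all transcripts tested. Of the 387, 300 differed by less than 2-fold, 87 by at least 2-fold (41 higher and 46 lower) and 13 by at least 4-fold (3 higher and 10 lower). Without MS-95 the count was 507, of which 228 were higher and 279 lower, and it lay between 288 and 373 when any 1 of the other libraries was left out.

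A far larger number of transcripts passed the adjusted p and missed the fold threshold. In all, 2903 (17.5%) had an adjusted p of at most 0.05 by edgeR's quasi-likelihood test, 1488 of them higher and 1415 lower, with a median absolute log2 fold change of 0.29. Of these, 2516 were below the fold threshold, which falls at 0.592 on the log2 scale. The weakest called change was 0.592 in size and the strongest uncalled one among those passing the adjusted p was 0.591. A further 714 transcripts passed the fold threshold and not the adjusted p, the nearest at 0.0502, where the largest adjusted p of a called transcript was 0.0487.

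The share of transcripts called varied with their abundance. CPM, the measure of abundance here, is a transcript's count scaled to a fixed total of counts on tested transcripts, with TMM normalization. Among transcripts whose mean log2 CPM was over 6, 27.3% passed the adjusted p and 1.26% were called, and the median standard error of the log2 fold change was 0.04. Between 0 and 2, 5.95% passed the adjusted p and 4.58% were called, with a median standard error of 0.21. Below 0, all 46 transcripts that passed the adjusted p were also past the fold threshold, and the median standard error was 0.36. The called transcripts lay at lower abundance than the rest: in 39.5% of them the mean log2 CPM reached 3, against 61.5% of all tested.

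**Figure D1:**
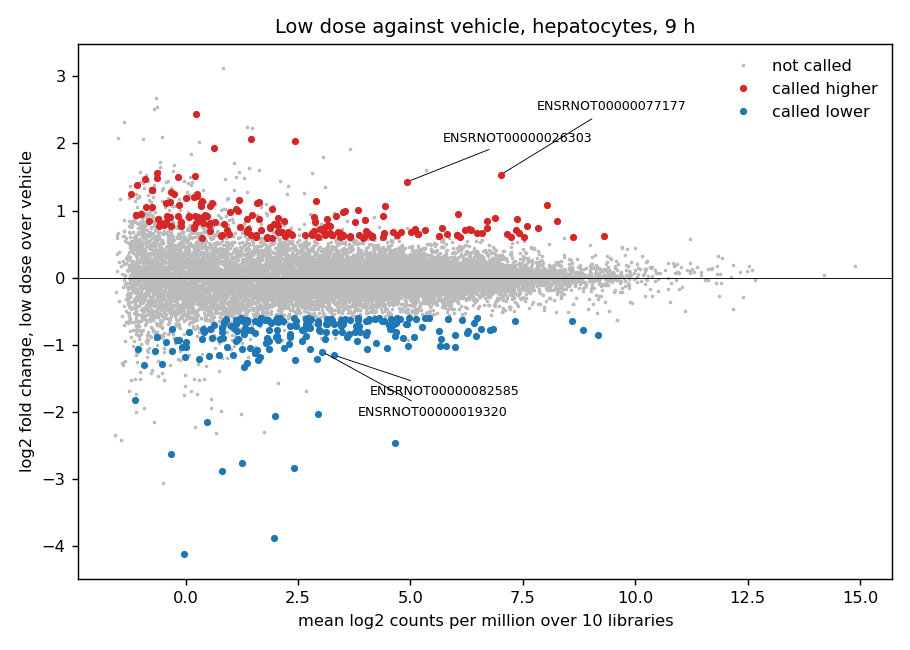
Log2 fold change of low dose over vehicle against mean log2 CPM, 1 point for each of the 16572 transcripts tested in hepatocytes at 9 h, with those called higher in red, the 202 called lower in blue and the rest in grey. Of the 13 called changes of 4-fold or more, 12 lie to the left of a mean log2 CPM of 3, while the 2 named increases lie at higher abundance, clear of the grey cloud.

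The largest well-measured changes were taken by a fixed rule: the transcript was called, its mean log2 CPM was 3 or more, and its low dose and vehicle libraries did not overlap. The rule was met by 69 higher and 65 lower transcripts, and the 2 with the largest increase and the 2 with the largest decrease are named. Their differences at 9 h chose them and are given as a description.

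ENSRNOT00000077177, a transcript of 1528 bases, had the largest increase. Its level was 69.4, 64.7, 65.4, 64.9 and 64.8 CPM in vehicle libraries MS-91 to MS-95 and 189.5, 183.8, 188.4, 197.6 and 194.3 CPM in low dose libraries MS-96 to MS-100. The lowest low dose library stood 2.65 times above the highest vehicle library, and the cultures within a group differed by little. The mean went from 65.8 ± 2.02 to 191 ± 5.34 CPM (SD, n = 5 each), a log2 fold change of 1.53 (SE 0.03, edgeR adjusted p = 4.1e-10) and the smallest p of all transcripts tested. In each of the 10 libraries its estimated count was a whole number (within 0.001), as for a transcript that shares no reads with another.

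ENSRNOT00000026303, of 3130 bases, also had whole counts throughout. It was measured at 16.1, 16.4, 14.8, 17.5 and 17.4 CPM in MS-91 to MS-95 and at 43.2, 47.5, 39.9, 45.7 and 44.7 CPM in MS-96 to MS-100. Again the groups were far apart, with means of 16.4 ± 1.10 and 44.2 ± 2.89 CPM (SD, n = 5 each) and a log2 fold change of 1.43 (SE 0.06, edgeR adjusted p = 2.53e-07).

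The 2 named decreases were smaller than the 2 named increases and had larger standard errors. ENSRNOT00000082585, of 3088 bases, had 14.5, 14.4, 14.6, 11.7 and 12.1 CPM in MS-91 to MS-95, and 5.62, 6.75, 8.39, 6.10 and 3.43 CPM in MS-96 to MS-100. The low dose libraries varied more among themselves than the vehicle libraries did, and the highest of them (MS-98) remained below the lowest vehicle library (MS-94). The means were 13.5 ± 1.42 and 6.06 ± 1.80 CPM (SD, n = 5 each), a log2 fold change of -1.15 (SE 0.19, edgeR adjusted p = 0.002).

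ENSRNOT00000019320, a long transcript of 10110 bases, had 11.6, 11.8, 7.88, 11.3 and 13.3 CPM in MS-91 to MS-95 and 4.87, 5.98, 2.90, 6.65 and 5.65 CPM in MS-96 to MS-100. One vehicle library, MS-93, came close to the highest low dose library, MS-99. The means were 11.2 ± 1.99 and 5.21 ± 1.44 CPM (SD, n = 5 each), a log2 fold change of -1.10 (SE 0.20, edgeR adjusted p = 0.00417). The estimated counts of both transcripts with decreases were not whole, as happens where reads are divided with other transcripts.

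Most called transcripts were separated library by library. In 302 of the 387 the 5 low dose libraries did not overlap the 5 vehicle libraries (81.1% of the higher and 75.2% of the lower), where 13.7% of all transcripts tested did not overlap, and since the same data chose the called, nothing is read from this. The remaining 85 had at least 1 library on the wrong side. When each library was left out in turn, 200 of the 387 were called in all 10 of the fits, 90 of the higher and 110 of the lower, and 93 were called in fewer than 5. Of those whose mean log2 CPM was 3 or more, 99 (64.7%) were called in all 10 fits, and of the 234 below it, 43.2%. All 387 kept their direction in every one of these fits, and 263 were also called by both DESeq2 and limma.

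**Figure D2:**
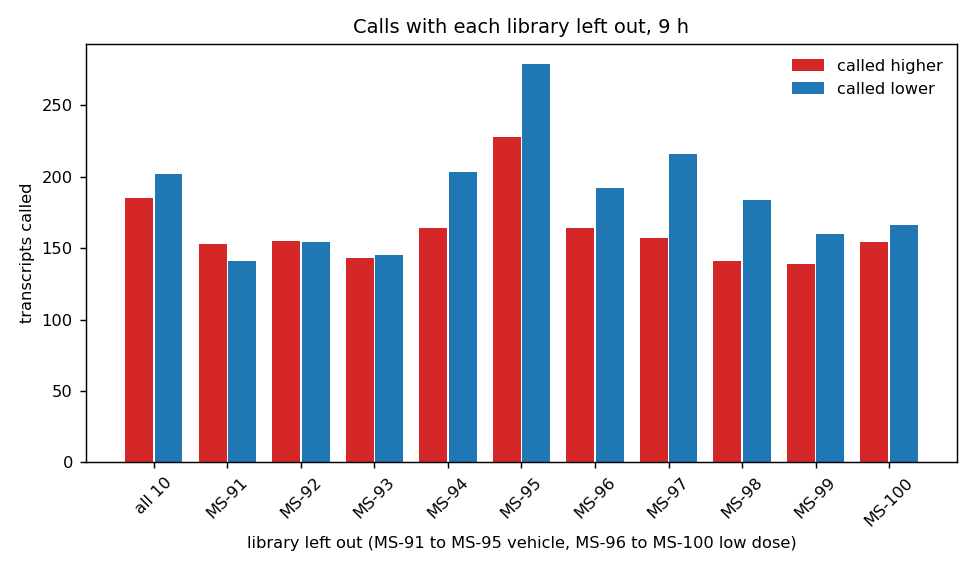
Number of transcripts called higher (red) and lower (blue), on an axis from 0, with all 10 libraries and with each library left out. Leaving out MS-95 gave 228 higher and 279 lower, the most of any bar, and leaving out each of the others gave at most 216 lower and fewer higher than with all 10.

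None of the 13 called changes of at least 4-fold met the rule for naming, which asks for abundance and for groups that do not overlap. Of them, 12 had a mean log2 CPM below 3, 9 did not overlap between the groups, 2 had whole counts, and 6 were called with every library left out in turn. The highest increase, 2.44 (SE 0.55) on the log2 scale, was of a transcript with a mean of 0.162 TPM (a level scaled to transcript length and to the library) in vehicle and 0.937 TPM at the low dose. The deepest decrease, -4.12 (SE 1.29, edgeR adjusted p = 0.0485), was of a transcript of 731 bases at 4.19 and 0.246 TPM, whose groups overlapped. The most abundant of the 13, at 52.3 TPM in vehicle and 9.48 TPM at the low dose, also overlapped between the groups. Others were measured more closely, all without overlap. A transcript of 2757 bases with whole counts rose by 2.04 (SE 0.12, edgeR adjusted p = 2.29e-06), from 0.961 to 3.96 TPM. A transcript of 2050 bases, at a mean log2 CPM of 2.94 just short of the rule, had a change of -2.03 (SE 0.10, edgeR adjusted p = 3.92e-07), from 7.91 to 1.92 TPM. One of 975 bases had a change of -2.06 (SE 0.12, edgeR adjusted p = 2.58e-06), from 9.63 to 2.29 TPM. One of 3544 bases, with whole counts, had a change of -2.15 (SE 0.32, edgeR adjusted p = 0.00118), from 0.766 to 0.171 TPM.

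The level in vehicle is one of the values that made the call, so a transcript called higher is more readily one that is low in vehicle and the reverse, and vehicle levels are given as a description. The median level in vehicle was 1.72 TPM among the higher and 4.23 TPM among the 202 lower, against 9.23 TPM over all tested, and 36.8%, 14.9% and 14.5% of them, in the same order, were below 1 TPM. Transcripts that were at 1 TPM or more in hepatocyte vehicle and below 1 TPM in the 9 h vehicle of both other cell types made up 17.3% (35) of the lower and 4.32% (8) of the higher, against 6.03% of all tested. This class also uses the vehicle level: 63.2% of the higher and 85.1% of the lower reached 1 TPM in hepatocyte vehicle, so its shares are in part set by the choice. Called transcripts were somewhat longer, with median lengths of 2286 bases among the higher and 2548 among the lower against 2100 over all, and with all tested transcripts divided by length into 4 equal parts, 2.80% of the longest part were called against 1.76% of the shortest. Whole counts in all 10 libraries, as for transcripts that share no reads, were found in 37.0% of the called, 35.6% of the lower and 39.4% of all tested, a difference that was not tested.

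As a sum, the higher transcripts were set by a few very short ones. Together they made up 6920 ± 832 TPM in vehicle and 12000 ± 2030 TPM at the low dose (SD, n = 5 each), of which 2064 and 3453 TPM were left when 4 transcripts shorter than 300 bases were taken out. The most abundant of these, of 254 bases, was at 2680 ± 584 TPM in vehicle and 4820 ± 1860 TPM at the low dose, where its libraries ranged from 2520 to 7000 TPM and overlapped vehicle (2230 to 3650 TPM). Its log2 fold change was 0.84 (SE 0.26, edgeR adjusted p = 0.0423), and it reached 57500 TPM in MS-183, a 24 h vehicle library with few counts on transcripts. Transcripts shorter than 300 bases, 4 of the higher and 2 of the lower, were left out of the sums that follow.

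For the remaining higher transcripts the vehicle libraries MS-91 to MS-95 held 1844, 2028, 1906, 2203 and 2341 TPM, and the low dose libraries MS-96 to MS-100 held 3493, 3316, 3321, 3596 and 3537 TPM. The remaining 200 lower transcripts held 2992, 2799, 2916, 2618 and 2456 TPM in vehicle and 1661, 1632, 1554, 1475 and 1509 TPM at the low dose. Vehicle library MS-95 was nearest to the low dose group in both sums, with MS-94 next. Since these transcripts were chosen for their difference, the gap between the groups is a description.

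The high dose libraries at the same time show how the same transcripts stood at 0.125 mM. The comparison of high dose with vehicle shares the vehicle libraries, and that of high dose with low dose shares the low dose libraries, so their values are set side by side and no agreement is read from them. Against vehicle, 8.66% of transcripts were called higher at the high dose and 9.91% lower. The medians for the higher and the lower transcripts were 1.40 and -1.39 on the log2 scale. In the direct contrast of high with low dose, 3.61% of all transcripts were called higher and 3.96% lower. Of the transcripts that were higher in low dose cultures, 89 (48.1%) were called higher still in high dose cultures, 1 was called lower and 95 were not called. Of the 202 that were lower, 97 (48.0%) were called lower still, 4 were called higher and the rest were not called. The medians of this contrast were 0.59 and -0.59. The summed levels at the high dose were 6016 ± 289 TPM for the higher and 957 ± 61.7 TPM for the lower transcripts (SD, n = 5).

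These 5 transcripts, called in opposite directions in the 2 contrasts, varied in where they stood at the high dose. The single increase against vehicle, on the log2 scale, was 1.12 in low dose cultures and 0.10 in high dose cultures. The 4 decreases were -1.15, -2.46, -2.62 and -2.83 in low dose cultures, where the high dose gave 0.38, 0.95, 0.13 and -0.06. None of the 5 had whole counts, and 3 of them overlapped between low dose and vehicle. Their adjusted p in the low dose comparison ran from 0.00476 to 0.0437 by edgeR's quasi-likelihood test.

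Among the named transcripts, both increases went further at the high dose. ENSRNOT00000077177 averaged 58.9 ± 1.53 TPM in vehicle, 169.1 ± 5.54 TPM with the low dose and 409 ± 18.8 TPM with the high dose (SD, n = 5 each), and high dose exceeded low dose by 1.41 on the log2 scale (SE 0.04, edgeR adjusted p = 2.01e-12). ENSRNOT00000026303 was at 6.74 ± 0.554, 18.0 ± 1.16 and 66.7 ± 6.24 TPM, and the last step, 2.02 (SE 0.07, edgeR adjusted p = 3.18e-11), was the larger of its 2 steps as measured. ENSRNOT00000082585 fell from 2.50 ± 0.734 TPM at the low dose to 1.07 ± 0.530 TPM at the high dose, a log2 difference of -1.09 (SE 0.27, edgeR adjusted p = 0.0063). ENSRNOT00000019320 had 0.631 ± 0.173 TPM at the low dose and 0.412 ± 0.0633 TPM at the high dose, and this difference, -0.48 (SE 0.20), did not pass the test (edgeR adjusted p = 0.0704).

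At 24 h the same dose was measured in other cultures, so that low dose and vehicle at 24 h share no library with the 9 h comparison. One vehicle library there, MS-183, had 249303 counts on transcripts (8.33% of its total) where the other 4 had at least 18834527, and the values below are given with and without it unless stated. Deposited TPM and the TMM-scaled values behind the tests differed at 24 h. Without MS-183 the log2 ratio of low dose to vehicle was higher in TPM than in CPM by a median of 0.24 over 16932 transcripts (quartiles 0.23 and 0.25), and by 0.29 with it, where at 9 h the median was -0.01. The 24 h vehicle libraries also carry numbers (MS-181 to MS-185) that do not run on from those of the treated libraries, and the effect of this could not be told apart from that of the dose. With all 10 libraries, 11.6% of transcripts were called higher at the low dose and 7.89% lower, and without MS-183 20.1% and 16.9%.

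The 9 h pattern was carried over to 24 h in a minority of the transcripts. Without MS-183, 70 of the higher and 52 of the 199 lower transcripts that could be tested kept their direction. In the TMM-scaled fits the transcripts that were higher at 9 h had a median log2 fold change of -0.48 at 24 h (-0.26 without MS-183). The 202 that were lower had a median of 0.53 (0.70 without it), where the median of all tested was within 0.01 of 0. The -0.26 is about the size of the offset of 0.24 between deposited TPM and CPM, so it depends on the scaling. Without MS-183, 39 of the higher transcripts (21.5% of those that could be tested) were called higher at 24 h and 66 (36.5%) lower. Among all transcripts 20.1% were called higher and 16.9% lower, so the share called higher was near that of all. Of the 199 lower transcripts that could be tested, 22 (11.1%) were called lower and 106 (53.3%) higher. With MS-183 kept, 17 (9.6%) of the higher were called higher and 39 (22%) lower. Of the lower, 8 (4.02%) were called lower and 67 (33.7%) higher. Among all transcripts 11.6% were then called higher and 7.89% lower.

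The summed levels of the 2 times, in TPM as deposited, are set side by side and were not tested against each other, and the 9 h levels of vehicle and low dose had chosen the transcripts. The higher transcripts of 300 bases or more summed to 2064 ± 206 TPM in vehicle at 9 h (SD, n = 5) and to 3347 ± 1541 TPM in vehicle at 24 h (SD, n = 5), or 4011 ± 473 TPM without MS-183 (SD, n = 4), while the low dose libraries held 3453 ± 127.6 TPM at 9 h and 3169 ± 71.4 TPM at 24 h (SD, n = 5 each). The 200 lower transcripts were at 2756 ± 219 TPM in vehicle at 9 h and 1998 ± 727 TPM in vehicle at 24 h (2260 ± 496 TPM without MS-183), and at 1566 ± 79.5 TPM in low dose cultures at 9 h. In low dose cultures at 24 h they held 2484 to 2774 TPM, inside the range of the 9 h vehicle libraries (2456 to 2992 TPM). High dose cultures at 24 h held 5256 ± 212 TPM of the higher transcripts and 1352 ± 129.3 TPM of the lower ones. The low dose sums at 24 h depended on the scaling. Without MS-183 the higher transcripts had a log2 ratio of low dose to vehicle of -0.34 in deposited TPM and -0.59 after TMM scaling of the TPM, when the vehicle libraries held 4049 to 4760 and the low dose libraries 2846 to 2995. For the lower transcripts the ratio was 0.24 as deposited and -0.04 after TMM scaling. The scaled vehicle libraries held 2094 to 3720 (2530 ± 794, SD, n = 4) and the low dose libraries 2280 to 2593. The library at 3720 raised the vehicle mean, so the scaled ratio leans on 1 library. No difference in the sum of the lower transcripts is read from 24 h in either direction. At 9 h the same scaling gave 0.76 and -0.81 where deposited TPM gave 0.74 and -0.82.

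**Figure D3:**
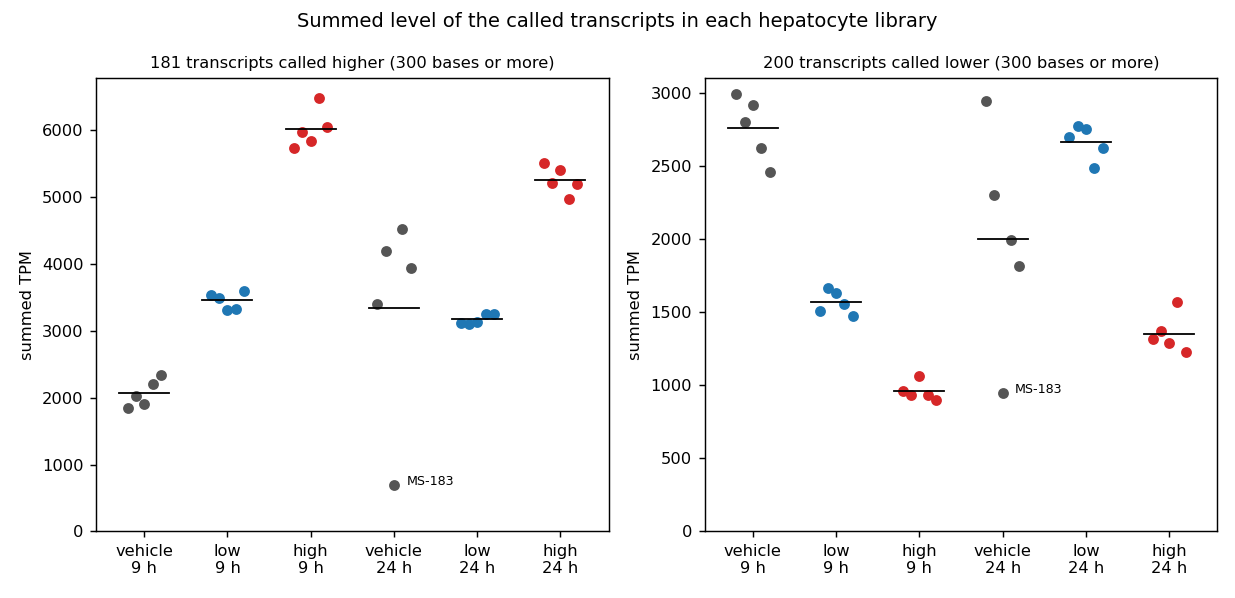
Summed TPM (vertical axes, from 0) of the called transcripts of 300 bases or more in each of the 30 hepatocyte libraries, those called higher at the left and 200 called lower at the right, with a line at the mean of the 5 libraries of a group, MS-183 included. TPM are as deposited. At 9 h the groups step up or down with dose. At 24 h the low dose lies below 4 of the 5 vehicle libraries at the left. At the right it lies above 4 of the 5. There the log2 ratio of the mean sums, without MS-183, is 0.24 as deposited and -0.04 after TMM scaling. The scaled ratio leans on the vehicle library at 3720, so it does not show that the gap is removed.

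For the named transcripts at 24 h, levels are given in CPM of the 24 h fit without MS-183 (SD, n = 4 vehicle and 5 low dose libraries), the scale of the fitted differences. ENSRNOT00000077177 was at 291 ± 22.0 CPM in vehicle and 322 ± 7.64 CPM at the low dose. The 24 h difference between the groups, 0.39 on the log2 scale (SE 0.38) with all libraries and 0.14 (SE 0.05) without MS-183, was not called in either fit (edgeR adjusted p = 0.505 and 0.0365, the latter below the fold threshold). ENSRNOT00000026303 was at 13.0 ± 2.64 CPM in vehicle and 8.87 ± 1.46 CPM at the low dose. The log2 difference of -0.55 (SE 0.15, edgeR adjusted p = 0.00967) passed the adjusted p and stayed below the fold threshold. With MS-183 it was -1.62 (SE 0.73, edgeR adjusted p = 0.142), so the transcript was not called either way. ENSRNOT00000082585 was at 8.67 ± 1.20 CPM in vehicle and 13.6 ± 3.24 CPM at the low dose. Its 24 h difference was 0.54 (SE 0.25, edgeR adjusted p = 0.155) with all libraries and was called higher without MS-183 (0.65, SE 0.18, edgeR adjusted p = 0.00821). ENSRNOT00000019320 did not pass at 24 h (0.00, SE 0.26, and -0.10, SE 0.21, without MS-183), with 3.99 ± 1.36 CPM in vehicle and 3.74 ± 0.454 CPM at the low dose. In deposited TPM the log2 ratios of the 4 without MS-183, in the same order, were 0.39, -0.34, 0.90 and 0.13, so that the sign for ENSRNOT00000019320 turned with the scaling.

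In the other cell types the same transcripts had medians between -0.22 and 0.13, with calls in both directions. Renal cells received 0.125 mM as their low dose and 0.5 mM as their high dose, and cardiomyocytes 0.5 and 1.5 mM, so no renal or cardiomyocyte group matches the hepatocyte low dose and the values are set side by side only. At 9 h in renal cells, 2.28% of transcripts were called higher and 4.41% lower at the low dose. Of the higher transcripts that could be tested there, 8 (5.1%) were called higher and 11 (7.01%) lower (median -0.03), and of the lower ones, 8 (4.79%) higher and 13 (7.78%) lower (median -0.02). At the renal high dose, where 8.16% were called higher and 10.9% lower, the higher transcripts gave 28 higher (17.6% of those tested) and 24 lower (15.1%), with a median of 0.06, and the lower gave 21 higher (12.4%) and 45 lower (26.5%), with a median of -0.19. These shares exceed those of all transcripts in both directions. In cardiomyocytes 1.28% were called higher and 1.14% lower at the low dose, and the higher transcripts gave 2 higher (1.42%) and 5 lower (3.55%) and the lower gave 3 higher (1.91%) and 6 lower (3.82%), with medians of 0.04 and -0.09. Low dose cardiomyocyte library MS-158 stood apart there, with 19579 transcripts above 0 where the other 4 had at least 23661. Without it, 2.39% of transcripts were called higher and 2.01% lower, the higher transcripts gave 5 higher (3.42%) and 5 lower (3.42%), the lower gave 8 higher (4.97%) and 10 lower (6.21%), and the medians were 0.01 and -0.06. At the cardiomyocyte high dose, with 6.22% called higher and 6.41% lower, the higher transcripts gave 22 higher (15.1%) and 17 lower (11.6%) and the lower gave 22 higher (13.2%) and 32 lower (19.2%), again above the shares of all transcripts in both directions, with medians of 0.13 and -0.22.

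**Figure D4:**
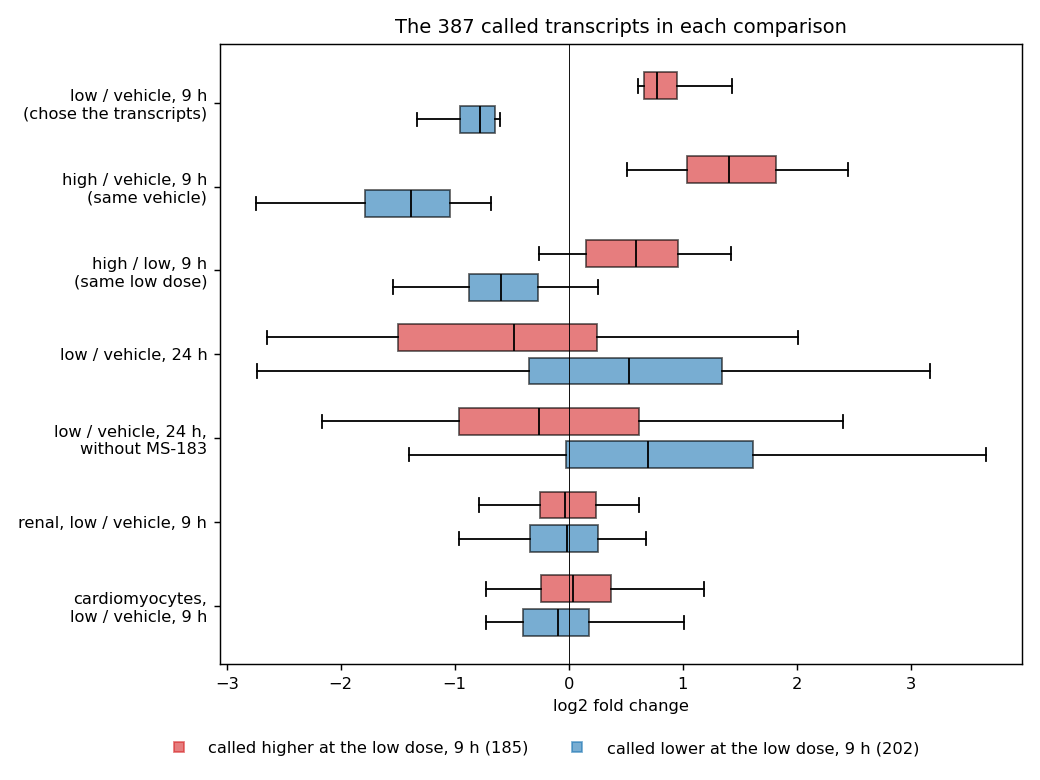
Log2 fold changes of the transcripts called higher (red) and the 202 called lower (blue) at the low dose at 9 h, in that comparison and in 6 others. Boxes span the quartiles with the median as a line, and whiskers the 5th to the 95th percentile. The comparison in the top row chose the transcripts, and the next 2 rows share libraries with it. The 24 h rows, as scaled by TMM, have medians on the opposite side of 0, and the renal and cardiomyocyte medians are near 0.

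The 4 named transcripts were spread differently over the cell types. ENSRNOT00000077177 had group means of 58.9 to 409 TPM in hepatocytes, against 0.455 to 1.24 TPM in renal cells and 0 to 0.251 TPM in cardiomyocytes. ENSRNOT00000026303 was lower in hepatocytes than elsewhere without treatment, at 6.74 TPM in 9 h vehicle against 32.4 ± 0.977 TPM in renal cells and 95.7 ± 3.06 TPM in cardiomyocytes (SD, n = 5 each). At the renal high dose of 0.5 mM at 9 h it was called higher as well, at 49.4 ± 2.33 TPM (log2 difference 0.61, SE 0.03, edgeR adjusted p = 1.27e-08). At the renal low dose it was measured at 21.5 ± 2.35 TPM. The log2 difference of -0.57 (SE 0.07, edgeR adjusted p = 0.000102) stayed short of the fold threshold. ENSRNOT00000082585 had like levels in hepatocyte and renal vehicle, 5.58 ± 0.501 and 5.66 ± 0.763 TPM, and 20.2 ± 2.28 TPM in cardiomyocytes, and was called lower at the renal high dose (-0.98, SE 0.11, edgeR adjusted p = 1.03e-05). ENSRNOT00000019320 was scarcest in hepatocytes, at 1.37 TPM in 9 h vehicle against 5.68 ± 0.302 TPM in renal cells and 28.8 ± 1.64 TPM in cardiomyocytes. It passed the adjusted p in both of those cell types at 9 h but stayed below the fold threshold. The log2 difference was -0.36 at the renal low dose (edgeR adjusted p = 0.00394) and 0.25 at the high dose (edgeR adjusted p = 0.00726). In cardiomyocytes it was 0.44 at the low dose (edgeR adjusted p = 0.0374), or 0.35 without MS-158 (edgeR adjusted p = 0.00223). At the cardiomyocyte high dose it was 0.49 (edgeR adjusted p = 0.000496).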

How the data were processed

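For each library the authors deposited 1 table of estimated counts and TPM per target, made with kallisto 0.42.4 per the labels on the Rnor_6.0 transcriptome. Estimated counts deposited by the authors are often fractions, since kallisto shares a read out among the transcripts it fits. The TPM values deposited by the authors are scaled to transcript length and to each library. Each table held 65166 targets, of which 25095 genomic intervals were left out of the main tests. Estimated counts were rounded, and the quasi-likelihood test of edgeR 4.0.16 (R 4.3.3) was run after filterByExpr and TMM normalization. Each standard error (SE) is the absolute log2 fold change divided by the square root of the quasi-likelihood F statistic. Benjamini-Hochberg adjustment covered the 16572 transcripts that passed the filter. The high dose was contrasted with the low dose in a fit of all 3 groups at 9 h. Thresholds on adjusted p (0.05) and natural-log fold change (0.41) were those of the study, whose Sleuth fits were not used. The alternatives included DESeq2 1.42.0 and limma 3.58.1. Only the edgeR fit was run on simulated counts, with changes of 2-fold or more in well-counted transcripts. Most called changes here were smaller, and the other steps were not simulated. The gene lists prepared for pathways and cell types were not scored, since 0 identifiers matched the gene table (assembly GRCr8). Transcripts were named by the rule given in the report. The comparison, thresholds and lists were chosen with earlier results of these data known. The renal, cardiomyocyte (with and without MS-158) and high dose against vehicle values, the difference between times, the sums of transcripts of 300 bases or more and their TMM scaling were added after the data were seen. Replicate numbers are library numbers and are not shared between groups.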

Additional observations from a re-analysis of the deposited data

Results flagged for a closer look

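For the 4 named transcripts the low dose effect at 24 h differed from that at 9 h when the difference itself was tested, in an edgeR fit of vehicle and low dose at both times. The 24 h effect minus the 9 h effect was -1.17 on the log2 scale for ENSRNOT00000077177 (SE 0.35, adjusted p = 0.0119), -2.23 for ENSRNOT00000026303 (SE 0.45, adjusted p = 0.000618), 1.77 for ENSRNOT00000082585 (SE 0.29, adjusted p = 7.66e-05) and 1.04 for ENSRNOT00000019320 (SE 0.34, adjusted p = 0.0222). Without MS-183 the same differences were -1.38, -1.96, 1.81 and 1.0, and all 4 passed again. Over all transcripts, 6605 of 17657 (37.4%) passed this test with all libraries and 10338 of 17892 (57.8%) without MS-183, so passing it does not set the named transcripts apart. The transcripts had been chosen for a large effect at 9 h, which enters the difference, so these tests are not independent of the choice.

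The level of ENSRNOT00000077177 in vehicle library MS-91, 69.4 CPM, lay far from the other 4 vehicle libraries for a group this tight. So did the summed TPM of the higher transcripts of all lengths in vehicle library MS-95 at 9 h, 8380 TPM. In vehicle at 24 h, MS-183 lay far from the other 4 libraries in the level of ENSRNOT00000077177 (13.7 TPM) and of ENSRNOT00000026303 (17.8 TPM). In all 52 sets of 5 hepatocyte libraries were examined. In the 9 h vehicle and low dose groups these were the CPM of each named transcript, the counts on transcripts and the mean absolute difference from vehicle, in the other 4 hepatocyte groups the TPM of each named transcript, and in all 6 groups the summed TPM of the higher and of the lower transcripts, over all lengths and from 300 bases. Chance flags about 1 in 20 such sets, and the 52 share libraries and are not independent.

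The 25095 genomic intervals were not part of the comparison. When they were tested together with the transcripts, 300 of 9313 intervals (3.22%) were called, 229 higher and 71 lower at the low dose, and their median log2 fold change was 0.12 where that of the transcripts in the same fit was -0.02. The intervals took 6.28 to 8.25% of the counts in vehicle libraries and 5.93 to 7.28% in low dose libraries. What the intervals represent is not given in the sources used here.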

How the results depend on the processing

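No paired analysis was possible because replicate numbers are not shared between groups. The count of 387 transcripts (202 lower) became 2903 (1415 lower) without a fold threshold, 87 (46 lower) with a 2-fold threshold and 195 (91 lower) when only transcripts with whole counts were tested. Leaving out 1 library gave 288 to 507, the highest without MS-95. It was within 1.5 times the main count under DESeq2 (399), limma (296), upper-quartile scaling (388), a filter of 5 counts in 47% of libraries (390), no filter beyond 1 count (329), all 3 groups in one fit (417) and intervals included (397). The mean absolute log2 fold change of 0.22 was 0.15 as log2(TPM + 1), 0.62 with no filter beyond 1 count and 0.22 to 0.24 without 1 library. The 1302 transcripts called between high and low dose ranged from 1130 to 1316 without 1 library. The 3228 called at 24 h became 5120 with DESeq2, 6279 without MS-183, 2127 without MS-112 and 2135 without MS-113, the lowest and highest without 1 library being 2127 and 6279. At 9 h the 4 named transcripts kept their direction and were called under every alternative in which they were tested. Beyond fewer or more libraries or transcripts, the cause of these shifts was not tested. Below a mean log2 CPM of 0, where standard errors were widest (median 0.36), no change under 1.5-fold passed the adjusted p, so smaller changes were not detectable there.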
